A study of Homo sapiens with 9 samples.

Results

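ERG, ETV1, ETV4 and ETV5 are the ETS transcription factor genes that chromosome rearrangements activate in prostate cancer, and the regions described here are those listed within 20 kb of them. Each gene was taken by its hg19 coordinates, which are chr21:39739183-40033704 for ERG, chr7:13930856-14031050 for ETV1, chr17:41605211-41623800 for ETV4 and chr3:185764106-185826901 for ETV5. All 4 genes lie on the minus strand, so the 5′ end is the higher coordinate. With the flanks they make up 636.1 kb, and 206 of the 335291 regions in the 6 deposited lists fall there. These are 5 EZH2 peaks in shEZH2 and 12 in control, 14 H3K27ac regions in shEZH2 and 15 in control, and 72 H3K27me3 regions in shEZH2 and 88 in control.

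The study used chromatin immunoprecipitation with sequencing in LNCaP, an established androgen-responsive prostate cancer cell line, with antibodies against EZH2, H3K27ac and H3K27me3. The shEZH2 cells had been infected with a lentivirus carrying a short hairpin against EZH2, and the control cells are labelled plko.1, the name of a vector used to express such hairpins. Per the labels, fixation in 1% paraformaldehyde came 2 to 3 days after the infection, and each antibody and condition gave 1 library of pooled cells. A difference between shEZH2 and control can therefore not be set against a spread between cultures, no test was possible, and the 95% exact intervals below cover counting error only. The level of EZH2 protein or RNA was not measured by these lists, so the knockdown itself was not checked here.

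ETS factors bind DNA through a winged helix-turn-helix domain that reads a GGAA core. ERG is normally made in endothelial and blood cells and is silent in prostate epithelium, until a fusion to the androgen-driven gene TMPRSS2 brings it under androgen receptor control. ETV1, ETV4 and ETV5 form the PEA3 subfamily, which acts downstream of receptor tyrosine kinase and MAPK signals, and each is a rarer fusion partner. LNCaP carries no ERG fusion. Its whole ETV1 locus is inserted in an intron of MIPOL1 on another chromosome, so tags from the inserted and the native copies of ETV1 cannot be told apart. EZH2 carries the methyltransferase activity of Polycomb repressive complex 2, which settles at unmethylated CG-rich promoters of silent developmental genes and trimethylates lysine 27 of histone H3 there (H3K27me3). Acetyl groups on that lysine (H3K27ac) are found at promoters and enhancers in use.

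The promoters of ERG and ETV1 are shown because the strongest EZH2 peak of the 4 genes lay near the 5′ end of ERG and the strongest H3K27ac region over that of ETV1. The promoter sequences used here are RefSeq's on GRCh38.p14 and cover 2 of the 4 genes, with 4 starts of ERG and 6 of ETV1, while those of ETV4 and ETV5 were not used here. Each stretch below is the 250 bases before a start, 5′ to 3′, with each CG dinucleotide in capitals. The first 2 are the outermost ERG start (chr21:38660668-38660917, minus strand) and the next start of ERG, 75722 bp farther in (chr21:38584946-38585195, minus strand). The last is the outermost ETV1 start (chr7:13991426-13991675, minus strand).
ERG outermost start: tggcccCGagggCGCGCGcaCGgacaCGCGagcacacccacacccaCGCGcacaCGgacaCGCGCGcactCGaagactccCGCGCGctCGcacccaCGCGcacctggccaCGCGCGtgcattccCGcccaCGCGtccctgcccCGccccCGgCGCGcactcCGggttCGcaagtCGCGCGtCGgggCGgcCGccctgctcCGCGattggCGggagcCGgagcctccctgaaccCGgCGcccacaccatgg
ERG second start: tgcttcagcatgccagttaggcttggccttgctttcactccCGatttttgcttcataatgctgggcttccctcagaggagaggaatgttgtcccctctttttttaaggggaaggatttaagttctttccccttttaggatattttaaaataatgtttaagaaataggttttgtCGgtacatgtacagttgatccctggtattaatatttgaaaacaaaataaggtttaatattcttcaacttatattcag
ETV1 outermost start: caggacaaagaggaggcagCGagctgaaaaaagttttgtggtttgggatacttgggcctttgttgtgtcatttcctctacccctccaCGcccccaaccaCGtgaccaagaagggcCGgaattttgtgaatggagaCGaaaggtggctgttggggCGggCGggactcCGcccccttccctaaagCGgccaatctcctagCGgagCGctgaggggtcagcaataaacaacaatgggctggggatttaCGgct

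The outermost ERG promoter was among the richest in CG of all promoters. Counted over 300 bp, 250 before and 50 after the start, it held 53 CG dinucleotides at a GC content of 77%, against a median of 14 over 35116 RefSeq promoters, 96.0% of which hold at least 1. Only 0.604% of promoters held as many. The other 3 ERG starts held 4 each, a number that 75.5% of promoters reached. The outermost ETV1 promoter held 18, reached by 44.5% of promoters, and its other 5 starts held 15, 12, 13, 17 and 0. CG reads the same on both strands, so each site was counted once. These starts are on another genome build than the regions below and were not placed on them.

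**Figure D1:**
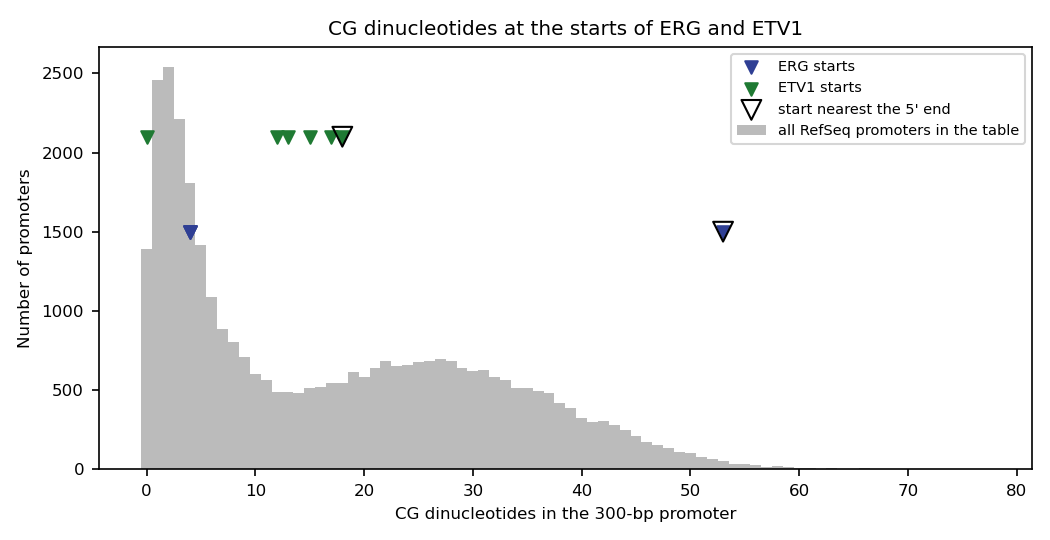
Number of RefSeq promoters (vertical axis) by their number of CG dinucleotides in 300 bp (horizontal axis). Triangles mark the starts of ERG and ETV1 and stand at an arbitrary height. The outermost ERG start, at 53, lies far to the right of the other 3, which share the value of 4.

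EZH2 lay at the 5′ ends of ERG, ETV4 and ETV5 in both conditions, and at the 5′ end of ETV1 in control alone. That ETV1 peak was weak, at 6.75 tags, and 2.18% of control peaks had fewer. Values are tags in the peak, which the authors normalised to a library of 10000000 tags. All 5 shEZH2 peaks and 8 of the 12 control peaks lay within 2.5 kb of a 5′ end. Summed over listed peaks, EZH2 came to 62.6 normalised tags in shEZH2 and 188.4 in control, a ratio of 0.332 (95% exact interval 0.259 to 0.425). A sum over listed peaks moves with how many were called, and a call took 45.6 tags per kb in shEZH2 and 36.9 in control. On the log2 scale this ratio was −1.59, and −0.53 when tags were scaled to those in listed peaks of each library. Listed peaks held 1.74% of tags in shEZH2 and 3.62% in control. Scaling to them takes out any change shared by all listed peaks. It also moves with the number of peaks listed, 9493 in shEZH2 and 23060 in control, so it does not give change relative to other peaks. By gene, scaling to listed peaks moved the log2 ratio to −0.01 (from −1.07) at ERG, to −1.04 (from −2.10) at ETV4 and to −1.43 (from −2.49) at ETV5.

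ERG had the peak with most tags of the 4 genes in each condition, and in control the ETV5 peak of 26.3 tags came second. In shEZH2 3 peaks were listed, with 15.8 tags at chr21:40032353-40032503, 13.1 at chr21:40032672-40032822 and 15.8 at chr21:40033340-40033490. In control 5 were listed, and the 2 near the 5′ end held 40.5 tags at chr21:40032416-40032598 and 25.5 at chr21:40033269-40033451. The peak of 40.5 tags stood 13.5-fold over its local background in the authors' deposited table and had more tags than 96.0% of control peaks. Its centre lay 1197 bp into the gene. The second peak, centred 344 bp in, had more tags than 90.4% of control peaks.

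Both of these ERG peaks were called again in shEZH2, at fewer tags when scaled to all tags. Per kb of peak, the first had 105 tags in shEZH2 and 221 in control, a ratio of 0.473 (0.278 to 0.786) from 23 and 54 unscaled tags. The second had 105 tags per kb in shEZH2 and 139 in control, a ratio of 0.751 (0.424 to 1.32), an interval that includes equal density. Scaled to the tags in listed EZH2 peaks of each library, the ratios were 0.987 (0.580 to 1.64) and 1.57 (0.884 to 2.75). On that scale the first thus came to near 1 and the second turned round. The scale moves with how many peaks were listed, and 11.4% of the 5330 control peaks called again were lower on it. Neither ratio can therefore be read as change relative to other peaks. Scaled to all tags, the log2 ratios were −1.08 and −0.41, beside a median of −0.39 and a lower quartile of −0.79 over those 5330. A loss shared by all listed peaks cannot be seen on that scale. The shEZH2 peak between them lay 74 bp from the nearest control peak and touched none. The other 3 control peaks of ERG were distal, with 11.3 tags at chr21:39755924-39756106 and 6.75 at chr21:39775465-39775647, centred 277689 and 258148 bp into the gene, and 9.75 at chr21:39723099-39723281 beyond its 3′ end. None of them overlapped a shEZH2 peak.

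ETV5 had a peak exactly over its 5′ end in both conditions, with 8.27 tags in shEZH2 (chr3:185826806-185826956) and 26.3 in control (chr3:185826777-185826959). The control peak stood 16.1-fold over its local background in the authors' deposited table, the highest such fold among the 12. Per kb the values were 54.8 in shEZH2 and 144 in control, a ratio of 0.381 (0.18 to 0.753). Scaled to tags in listed peaks the ratio was 0.795 (0.376 to 1.57), in the same direction but with an interval that includes equality. A second control peak 749 bp into the gene, with 12.8 tags, and one 60483 bp in, with 7.50, overlapped no shEZH2 peak.

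ETV4 had 1 peak in shEZH2, of 9.65 tags at chr17:41623532-41623682. In control it had 3, of 16.5, 15.8 and 9 tags, at chr17:41623147-41623329, chr17:41622562-41622744 and chr17:41621594-41621776. The shEZH2 peak lay closer to the 5′ end than all 3 and 203 bp from the nearest of them. No control peak of ETV4 was thus called again by the rule of 1 shared bp, although the peak nearest the 5′ end was centred 193 bp into the gene in shEZH2 and 562 bp in control. ETV1 had no peak in shEZH2 and 1 in control, at chr7:14029309-14029491, with 6.75 tags. The shEZH2 list needed 6.89 normalised tags in a narrower window, so a peak of this size was not detectable there.

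Set against the whole lists, the loss of calls at the 4 genes was close to that elsewhere. Of the 12 control peaks, 3 (25%, 5.49 to 57.2) were called again in shEZH2, against 23.1% of all 23060 control peaks. Of the 9 that were not, 3 had fewer tags per kb than a call needed in shEZH2. In the other direction 3 of the 5 shEZH2 peaks (60.0%) overlapped a control peak, against 56.2% of all 9493. All 3 pairs were lower per kb in shEZH2, as were 71.2% of the 5330 control peaks called again. Scaled to tags in listed peaks, 2 of the 3 were lower, against 11.4% of the 5330, both with intervals that include equality. Their log2 ratios of shEZH2 over control, in tags per kb, were −1.08 and −0.41 at ERG and −1.39 at ETV5, beside a median of −0.39 over all such peaks with quartiles of −0.79 and 0.05.

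**Figure D2:**
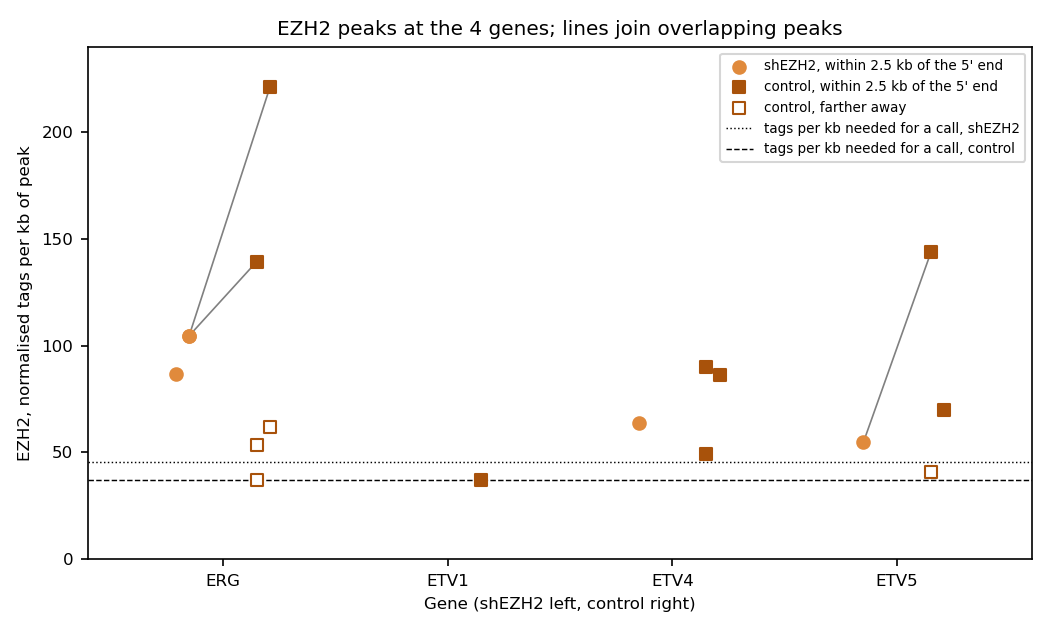
EZH2 tags per kb in each listed peak (vertical axis) of the 4 genes, with shEZH2 left of control, filled where the centre is within 2.5 kb of the 5′ end. Grey lines join the 3 overlapping pairs, and horizontal lines give the density a call needed, 45.6 tags per kb in shEZH2 and 36.9 in control. The lines run lower on the shEZH2 side in every pair, at the scaling to all tags.

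EZH2 at these genes lay mostly on its own mark. All 5 shEZH2 peaks overlapped a shEZH2 H3K27me3 region (exact interval 47.8 to 100%), against 67.8% of all shEZH2 peaks. In control 10 of 12 overlapped H3K27me3 (83.3%, 51.6 to 97.9), against 44.2% of all control peaks, and 1 of 12 overlapped H3K27ac (8.33%), against 34.4%. That one was the ETV1 peak, which lay on both marks. The control peaks off H3K27me3 were the weak distal ERG peak of 6.75 tags and the strong ETV5 peak of 26.3 tags. Control H3K27me3 regions lay on either side of this ETV5 peak, and in shEZH2 a wider H3K27me3 region reached partly under it. The share on H3K27me3 depended on which peaks and which H3K27me3 regions were counted. It was 50% (4 of 8) when both lists were cut to the upper 50% by score, which dropped H3K27me3 regions as well as peaks. For H3K27me3 the score did not follow tags. The cut dropped the ERG 5′ region of 130.1 tags (score 13), which overlaps 2 of the EZH2 peaks, and kept regions of 4.21 tags (score 14). The 50% can therefore not be read as the share on strong H3K27me3.

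For the histone marks, widths and numbers of regions are not comparable between conditions, because the authors called the shEZH2 lists with windows of 1000 bp and the control lists with windows of 150 bp. A call needed 9.47 tags per kb in shEZH2 and 34.4 in control for H3K27ac, and 9.53 in shEZH2 and 26.0 in control for H3K27me3. Listed regions held 58.96% of tags in shEZH2 and 46.12% in control for H3K27ac, and 41.29% in shEZH2 and 16.16% in control for H3K27me3. These shares move with the calling settings. Histone ratios scaled to tags in listed regions therefore carry that difference, and a lower value under that scaling cannot be read as a loss. Listed H3K27me3 covered 30.5% of the 636.1 kb in shEZH2 and 4.71% in control, beside 7.90% and 1.22% of the genome's listed span in shEZH2 and control. Listed H3K27ac covered 5.43% in shEZH2 and 1.22% in control, beside 4.75% and 1.5% of that span in shEZH2 and control. In both conditions H3K27me3 thus took a larger share of the 4 windows together than of the genome. This did not hold at ETV1, with 3.21% in shEZH2 and 0.315% in control. The 4 genes differed from one another in which mark they carried.

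**Figure D3:**
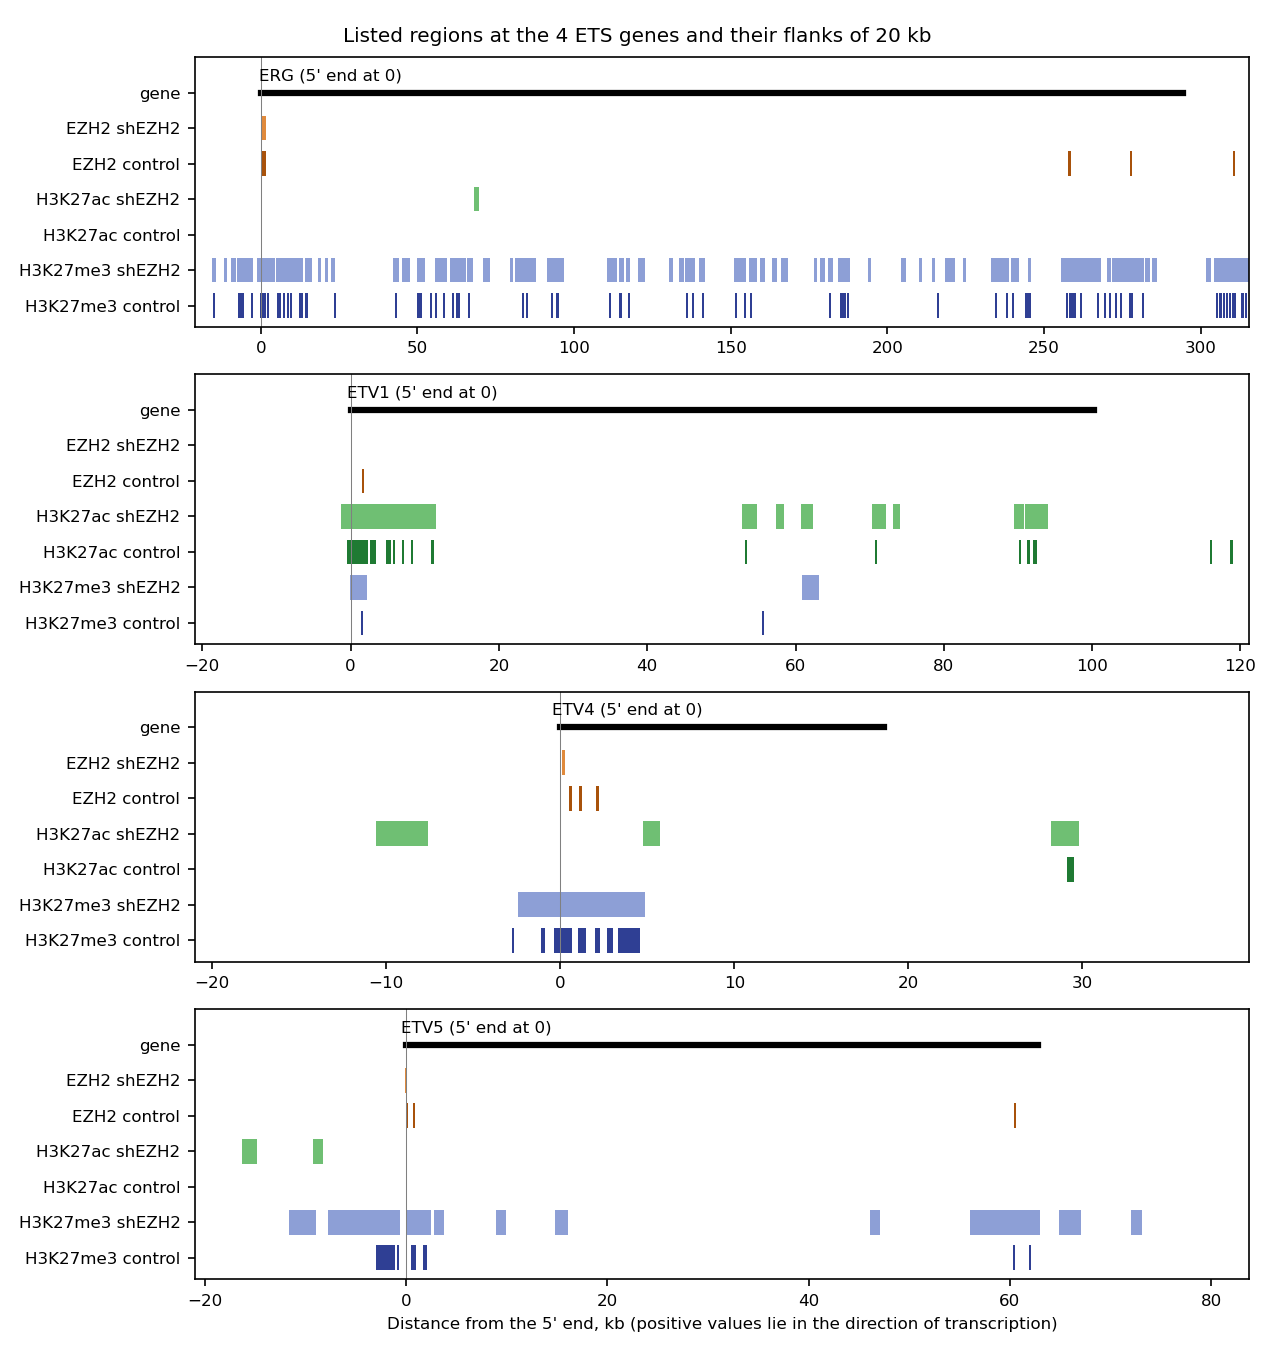
All 206 listed regions along the 4 genes, with distance from the 5′ end in kb on the horizontal axis and, in each panel, 1 row for each list, shEZH2 above control. Narrow regions are drawn at a minimum width so that they can be seen. H3K27me3 is spread along ERG in both conditions, and H3K27ac is concentrated at ETV1.

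ERG had H3K27me3 regions scattered along its whole length and almost no H3K27ac. H3K27me3 covered 46.4% of its window in shEZH2 (59 regions) and 6.70% in control (73 regions, 32 of them a single window of 150 bp). The strongest stretch in control lay over the 5′ end, under both EZH2 peaks. It held 182.2 tags in shEZH2 (chr21:40030739-40034999, 42.8 per kb) and 130.1 in control (chr21:40031911-40033822, 68.1 per kb), more tags than 98.9% of control regions. Away from the 5′ end the mark was flatter. Outside 15 kb on either side of the 5′ end and outside the 3′ flank, 50 shEZH2 regions averaged 12.7 tags per kb with a highest value of 100.2 tags, and 48 control regions averaged 30.9 per kb with a highest value of 48.7 tags.

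A further block of ERG H3K27me3 lay beyond the 3′ end. In shEZH2 it was a region of 230.6 tags at chr21:39716382-39729362, the one with most tags among the 72, and in control 10 regions inside that stretch summed to 157.5 tags. H3K27ac at ERG came to 1 region of 19.4 tags in shEZH2 (chr21:39963968-39965562), 68939 bp into the gene, and none in control. The lists were called with different windows, so the absence of that region, at 12.2 tags per kb, from the control list cannot be read as a difference.

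ETV1 showed the opposite picture, with H3K27ac over its 5′ end and little H3K27me3. A broad H3K27ac region held 255.7 tags in shEZH2 (chr7:14019515-14032314), and the control list had 164.0 tags in the region over the 5′ end (chr7:14028698-14031512, more than 86.1% of control regions) and 6 weaker ones behind it. The 7 control regions lay inside the shEZH2 one and summed to 283.8 tags over 5535 bp, so shEZH2 held fewer tags on a longer stretch, at a ratio of 0.901 (0.797 to 1.02). The interval includes equality, and the ratio was 0.705 when tags were scaled to those in listed regions of each library. A second H3K27ac site near the 3′ end held 83.4 tags in shEZH2 (chr7:13936996-13940084) and 78.6 in control, in 2 regions of 51.6 and 27, at a ratio of 1.06 (0.847 to 1.33) that turned to 0.830 under that scaling. The control regions there were the densest of the gene, at 97.4 and 87.1 tags per kb.

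H3K27me3 at ETV1 was weak in both conditions. It covered 3.21% of the window in shEZH2 and 0.315% in control, with 24.4 tags over the 5′ end in shEZH2 (chr7:14028905-14031099) and 9.61 in control (chr7:14029356-14029646). These regions lay inside the H3K27ac regions of the same condition. Whether the 2 marks sat on the same copies of ETV1, or on the inserted and the native copies, cannot be told apart in pooled cells.

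ETV4 and ETV5 had H3K27me3 around the 5′ end and no H3K27ac there. At ETV4 a single H3K27me3 region held 119.3 tags in shEZH2 (chr17:41618911-41626242), and 6 control regions inside it summed to 109.8 tags, at a ratio of 1.09 (0.930 to 1.27) that turned to 0.425 when scaled to tags in listed regions. The control region over the 5′ end held 31.2 tags (chr17:41623115-41624174). At ETV5 the 5′ end had 51.8 tags in shEZH2 (chr3:185824406-185826917) and 37.2 in the 2 control regions inside that stretch, the nearer of which held 22.8 (chr3:185825940-185826459). The ratio was 1.39 (1.08 to 1.79) and turned to 0.545 under that scaling. Upstream of ETV5 a region held 125.4 tags in shEZH2 (chr3:185827504-185834711) and 58.6 in the 2 control regions inside it, the stronger with 53.8 (chr3:185828027-185829883). The ratio was 2.14 (1.79 to 2.57) and turned to 0.837 under that scaling. A distal block at the ETV5 3′ end held 95.7 tags over 6931 bp in shEZH2 and 12.6 over 384 bp in the 2 control regions inside it. The ratio was 7.58 (5.45 to 10.8), or 2.97 under that scaling, while tags per kb were 13.8 in shEZH2 and 32.9 in control. At each of these ETV4 and ETV5 sites the shEZH2 region was the longer stretch, so a ratio over 1 cannot be read as a gain.

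Their H3K27ac was weak and lay away from the 5′ ends. ETV4 had 51.4 tags in shEZH2 at chr17:41631391-41634420, upstream of the gene, 10.8 inside it, and 18.5 beyond its 3′ end. The control list had only the last of these sites, with 10.9 tags at chr17:41594305-41594667. ETV5 had 11.3 and 23.9 tags upstream in shEZH2 and no listed region in control. All of these shEZH2 regions had 17.0 tags per kb or fewer, which is under the control threshold. This held also for the region of 18.5 tags (11.4 per kb), which overlapped a control region.

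**Figure D4:**
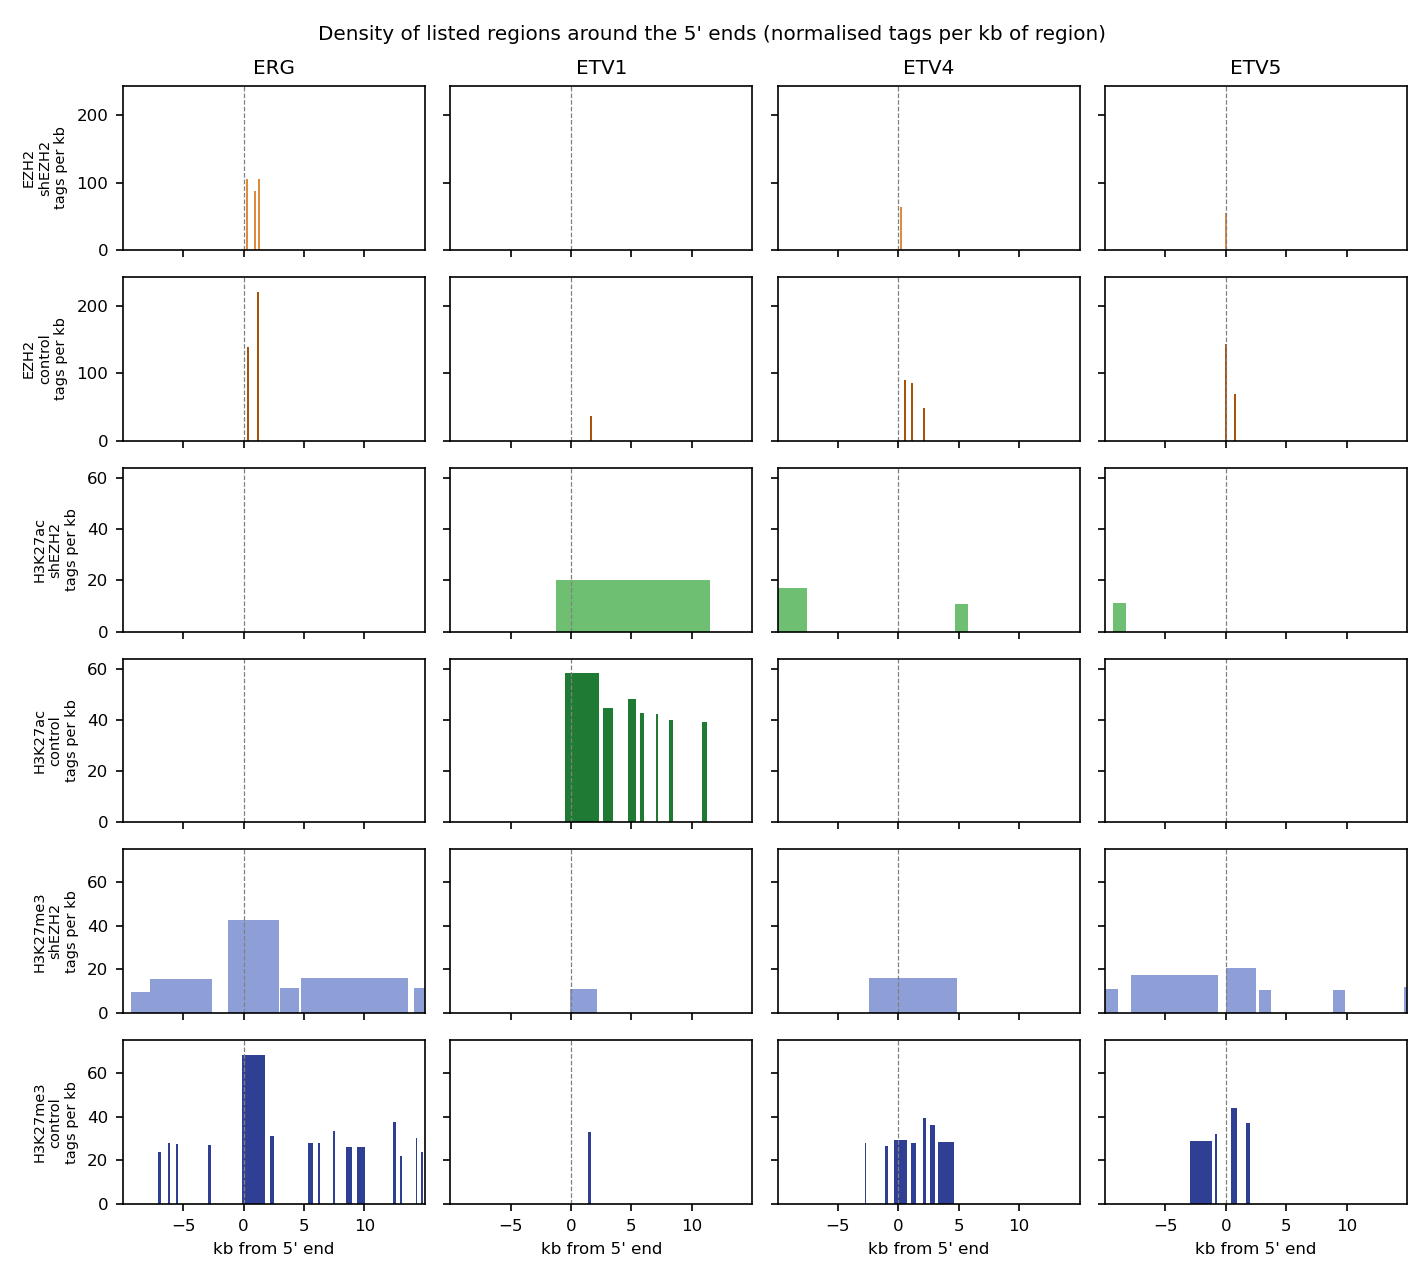
Normalised tags per kb of each listed region (vertical axis) from 10 kb before to 15 kb after the 5′ end (horizontal axis, kb) of each gene, with a row for each list and shEZH2 above control. Bars are as wide as the regions. ERG has the tallest EZH2 and H3K27me3 bars, and ETV1 alone has H3K27ac over the 5′ end.

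Most control regions of both marks were found again in shEZH2. For H3K27ac this held for 13 of 15 (86.7%, 59.5 to 98.3), against 97.0% of the whole list, and for H3K27me3 for 82 of 88 (93.2%, 85.7 to 97.5), against 94.1%. Of these 88 regions 73 lay at ERG, with up to 10 inside 1 shEZH2 region. The intervals treat neighbouring regions as independent and may be too narrow. The 2 H3K27ac regions not found again lay beyond the 3′ end of ETV1 and held 6.88 and 4.59 tags, and the 6 H3K27me3 regions held at most 5.41. In the other direction 6 of 14 shEZH2 H3K27ac regions (42.9%) overlapped a control region, against 59.0% of the list. For H3K27me3 it was 37 of 72 (51.4%, 39.3 to 63.3), against 36.8%. The 8 H3K27ac and 35 H3K27me3 regions listed in shEZH2 alone all had a mean density under the control threshold, so their absence from the control lists cannot be read as a difference. Over the whole lists 0.0742% and 0.00478% of such regions reached that threshold for H3K27ac and H3K27me3.

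A comparison less tied to the settings sets each shEZH2 region beside the control regions wholly inside it. The shEZH2 region is the longer stretch, so its tags are an upper limit for the same stretch, and only a lower value in shEZH2 can be read. For H3K27me3 this was seen at 1 of 36 shEZH2 regions of the 4 genes, against 0.825% of the whole list. It lay inside ERG, with 45.7 tags in shEZH2 (chr21:39981414-39983952) and 48.7 in control, at a ratio of 0.938 (0.736 to 1.20), which includes equality. For H3K27ac it was seen at 1 of 6, the ETV1 5′ region above, against 14.5%. The ERG 5′ region held 182.2 tags in shEZH2 and 139.4 in the control regions inside it, a ratio of 1.31 (1.15 to 1.49). Scaled to tags in listed regions the ratio was 0.511, so its direction depended on the scaling. That scaling carries the difference in calling settings, so a lower value under it cannot be read as a loss. Under that scaling, shEZH2 held fewer tags at 16 of the 36 H3K27me3 regions, against 37.7% of the whole list. For H3K27ac it was 2 of the 6 regions, against 39.1%.

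**Figure D5:**
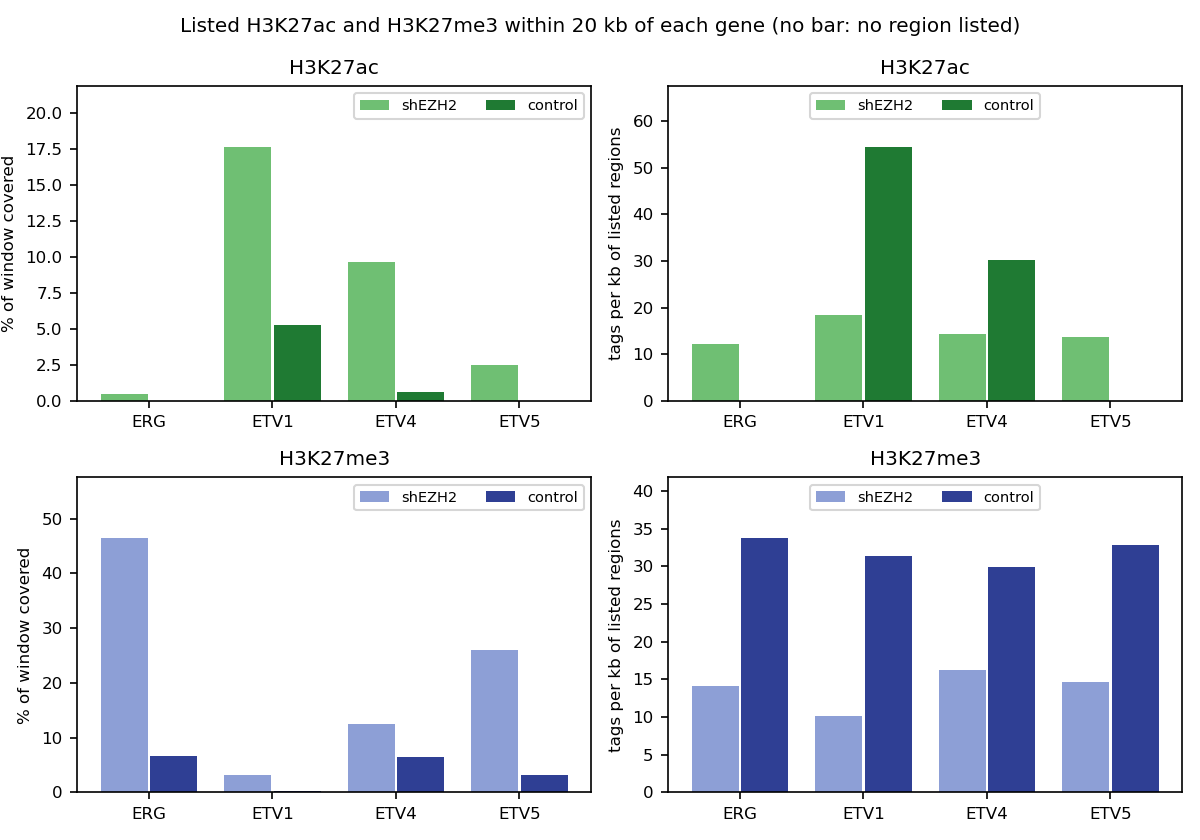
Listed H3K27ac (top) and H3K27me3 (bottom) at each gene with 20 kb on either side, as percent of the window covered (left) and normalised tags per kb of listed regions (right), with shEZH2 left of control. In shEZH2, coverage is higher and density lower wherever both conditions have regions, in lists called with wider windows in shEZH2.

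Genes that donate their promoters to such fusions carried H3K27ac over most of their windows. At TMPRSS2, a surface serine protease gene driven by androgen, H3K27ac covered 72.3% of the window in shEZH2 and 52.4% in control, with no H3K27me3 in either condition. At SLC45A3, another androgen-driven 5′ partner, it covered 81.8% in shEZH2 and 51.3% in control, also with no H3K27me3. FOXA1, a pioneer factor of prostate epithelium, had 56.3% in shEZH2 and 39.4% in control. MIPOL1, which hosts the inserted ETV1 locus of LNCaP, had 29.7% in shEZH2 and 13.8% in control. These genes were not free of EZH2. In control, 1 peak lay within 2.5 kb of the 5′ end of TMPRSS2 (10.5 tags) and 1 of SLC45A3 (9 tags). FOXA1 had 1 control peak (10.5 tags) farther away, and none of these 3 genes had a peak in shEZH2. MIPOL1 had 1 peak in shEZH2 (8.96 tags) and none in control. For ETV1 the values were 17.6% in shEZH2 and 5.30% in control, the highest of the 4 ETS genes and below those of its host.

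The libraries carried the marks of the labelled cell type. KLK3, which encodes prostate-specific antigen, had H3K27ac over 94.2% of its window in shEZH2 and 90.4% in control and no H3K27me3. PTPRC, a leukocyte gene, had H3K27ac over 0.632% in shEZH2 and 0.0953% in control, and H3K27me3 over 16.5% in shEZH2 and 1.51% in control. H3K27me3 covered more of ERG than of PTPRC in each condition. The libraries held 14514395 tags in shEZH2 and 13331155 in control for EZH2, 22175405 in shEZH2 and 17438009 in control for H3K27ac, and 26241104 in shEZH2 and 33289172 in control for H3K27me3.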

How the data were processed

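Chromatin immunoprecipitation libraries of LNCaP cells were grouped by their titles into 6 groups of 1 library, and 3 further samples were not analysed here. The submitters' processing notes name BWA 0.6.1, HOMER 4.1 and hg19. Per the file headers, each library was called by itself with no input, EZH2 at a false discovery rate of 0.001 and at least 4-fold over the surrounding 10 kb. Histone regions were built from windows of 1000 bp in shEZH2 and of 150 bp in control, the first at a Poisson probability of 0.001 and the second at that discovery rate, per the file headers. The deposited signal is a region's tag number, which the authors normalised to a library of 10000000 tags. The deposited score is not normalised and served only to rank regions within a list. For histone regions this ranking did not follow tag number. The deposited fold over local background is quoted for 2 peaks. The deposited local p-value, focus fraction and clonal ratio were not used here.

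The members and lists were chosen with earlier results of these data known. Named were every EZH2 peak and, for each histone list and gene, regions at the 5′ end and among the 3 with most tags; other regions given by value were chosen after their values were seen. Overlap meant at least 1 shared bp. Unscaled tags, recovered from the signal and library totals, gave exact conditional intervals of ratios, and shares have exact binomial (Clopper-Pearson) intervals. No p-value was computed. Comparator coordinates were entered by hand, and other ETS genes were not counted, as no hg19 annotation was used. Alternatives were gene bodies alone, flanks of 50 kb, the upper 50% by score, 50% overlap, distance up to 1 kb and scaling to listed tags. Chosen after seeing the data were the comparison of control regions inside shEZH2 regions and the density limit. Overlaps were tested on simulated data. Computations ran in Python 3.11.15 with scipy 1.17.1, pandas 2.3.3 and numpy 2.4.6, and figures were drawn with matplotlib 3.10.9.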

Additional observations from a re-analysis of the deposited data

How the results depend on the processing

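No paired analysis was possible because each group held 1 library. Over the alternatives, 28 values for the 4 genes together stayed near the reported one and 24 moved. Near meant inside the exact interval of the reported share, coverage or ratio, or within a fixed fold for counts. These intervals are wide for shares of few peaks and narrow for coverage, where each bp was taken as a trial. When each list was cut to the 50% of regions with the highest scores, the windows held 3 EZH2 peaks in shEZH2, 4 H3K27ac regions in shEZH2 and 9 in control, and 42 H3K27me3 regions in shEZH2 and 47 in control. Under this cut, 50% of control EZH2 peaks lay on H3K27me3 and 0% on H3K27ac, and 68.1% of control H3K27me3 regions were called again. The score of histone regions did not follow their tags, so these values do not describe the strongest regions. Within 1 kb, 100% of control EZH2 peaks had H3K27me3. Counted within 1 kb, 50% of control EZH2 peaks (6 of 12) had a shEZH2 peak, against 25% by 1 shared bp. That change was counted as near, and no share of the whole list within 1 kb is given here. With flanks of 50 kb, H3K27ac covered 4.48% in shEZH2 and 1.12% in control, and H3K27me3 25.6% in shEZH2 and 3.81% in control. In gene bodies alone, H3K27ac covered 1.40% in control, and H3K27me3 32.8% in shEZH2 and 4.63% in control. The log2 ratio of summed tags, shEZH2 over control, was −1.59 for EZH2, 0.51 for H3K27ac and 1.49 for H3K27me3. Scaled to tags in listed regions, it was −0.53, 0.15 and 0.14. It was 0.30 for H3K27ac in gene bodies, and 0.11 for H3K27ac and 1.15 for H3K27me3 over control regions inside shEZH2 regions. Scaling to tags in listed regions moves with the number of listed peaks for EZH2, and with the calling settings for the histone marks. It turned H3K27ac at ETV1 to −0.18 (0.17 as reported) and H3K27me3 at ETV4 to −1.29 (0.07 as reported). At the density a control call needed, 0 of the 8 H3K27ac and 0 of the 35 H3K27me3 regions listed in shEZH2 alone were left. This limit sets means over 1000 bp or more against a threshold for 150 bp, so it does not show what control could have called. The cause of these differences was not tested. An EZH2 density under 45.6 tags per kb was not detectable in shEZH2.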
